A study of Mus musculus with 12 samples.

Results

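A set of 9 genes of prostaglandin and leukotriene synthesis and signalling was followed in mouse bone marrow-derived macrophages, out of 22180 gene symbols on the arrays. The set was drawn up from 10 names: the phospholipase Pla2g4a, the cyclooxygenases Ptgs1 and Ptgs2, the prostaglandin E2 synthase Ptges, the prostaglandin E2 receptors Ptger2 and Ptger4, and Alox5, Alox5ap, Lta4h and Ltc4s of the leukotriene branch. A gene was included if a row of the value table carried exactly its symbol, which held for 9, and where a symbol had several rows the one with the highest 12-array mean was used. Ptgs1 was not analysed here.

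The macrophages were grown in medium conditioned by L929 cells from wild-type mice and from mice carrying floxed Rasgef1b alleles and a Vav-driven iCre transgene (Rasgef1b_fl/fl_vav-icre), which is active in blood-forming cells. Cells of each genotype received saline, or for 4 h R848, a small molecule that activates endosomal Toll-like receptors, which gives 4 groups of 3 arrays. The labels name no group with the transgene alone, give no age of the mice and no time for saline, and are silent on whether the 3 replicates of a group are different mice or different cultures. The p-values therefore rest on array-to-array spread alone, part of which may be technical. Values are RMA log2 intensities, where a difference of 1 is a 2-fold difference. A row under a limit of 4.31 to 4.35 is called dim. The limit is the 40th percentile, on each array, of the rows with 1 gene symbol.

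Eicosanoids are signalling lipids made from arachidonic acid that a phospholipase frees from membranes. In the cyclooxygenase branch Ptgs1 and Ptgs2 convert it to prostaglandin H2, which terminal synthases turn into single prostanoids such as prostaglandin E2. In the leukotriene branch Alox5, with its helper protein Alox5ap, makes leukotriene A4, from which Lta4h makes the neutrophil attractant leukotriene B4 and Ltc4s makes the cysteinyl leukotrienes. Macrophages are known for making both kinds of lipid and for answering prostaglandin E2 through the cyclic AMP-raising receptors Ptger2 and Ptger4.

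On the arrays, all 8 macrophage markers with a row (Adgre1, Csf1r and Cd68 among them) lay above the dim limit on all 12 arrays. Of 10 markers of mast cells and basophils, which also make leukotrienes, 8 lay above it on no array, Cpa3, Fcer1a and Kit included. The summed linear intensity of those 10 markers was 126 to 128 with saline and 128 to 133 with R848 in wild type, and 127 to 128 and 128 to 134 in knockout. Of 11 neutrophil markers 5 lay above it on no array, Ly6g, Mpo and S100a8 included, and the summed intensity of the 11 was 173 to 187 and 174 to 185 in wild type and 179 to 185 and 192 to 202 in knockout. Summed eosinophil markers (5 with a row, 2 above the limit on all arrays, Epx and Il5ra on none) were 259 to 303 with saline and 369 to 452 with R848 in wild type and 253 to 320 and 321 to 443 in knockout, with Ccr3 past the threshold. Summed markers of fibroblasts and endothelium (8, of which 6 lay above the limit on all arrays, Pdgfra and Dcn on none) were 227 to 242 and 258 to 269 in wild type and 218 to 240 and 282 to 296 in knockout. Of 6 tested, 2 passed the threshold higher with R848 in each genotype and 0 lower. Kdr means were 5.73 and 6.24 in wild type and 5.69 and 6.53 in knockout, and those of Pecam1 4.60 and 4.93, and 4.69 and 5.14. Those of Col1a1 were 5.35 and 5.31, and 5.38 and 5.35. Of the 8 macrophage markers, 2 passed the threshold higher with R848 and 3 lower in wild type, and 2 and 4 in knockout. Mertk means were 7.18 with saline and 5.39 with R848 in wild type, and 7.43 and 5.51 in knockout. Those of Cd14 were 10.84 and 11.51, and 10.85 and 11.51. The part of all these marker shifts in the R848 results below was not tested. Rasgef1b was at 9.12 ± 0.08 (SD, n = 3) with saline and 9.79 ± 0.09 (n = 3) with R848 in wild type, and at 8.41 ± 0.46 (n = 3) and 9.14 ± 0.47 (n = 3) in knockout. The knockout difference did not pass with saline (-0.71, limma adjusted p = 0.158) or with R848 (-0.65, adjusted p = 0.333) and passed averaged over both (-0.68 ± 0.15, SE, adjusted p = 0.036). Signal remained, and which part of the gene its row reads is not given in the sources used here.

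With R848, Pla2g4a, Ptgs2 and Ptges, which free arachidonic acid and turn it into prostaglandin E2, rose in both genotypes, while Alox5ap and Lta4h of the leukotriene branch fell in both. In the same branch, the row used for Alox5 rose narrowly in wild type only, and Ltc4s did not pass the threshold in either genotype. The wild-type fall of Alox5ap did not pass with the mean of its rows. In wild type 8 of the 9 genes passed the threshold (limma, adjusted p under 0.05 over all 14079 tested genes), 5 higher and 3 lower, where 38.3% of all tested genes passed, 14.6% higher and 23.6% lower. In knockout 7 of 9 passed, 4 higher and 3 lower, where 41.6% of all tested genes passed, 15.6% higher and 26.0% lower. R848 and saline arrays did not overlap for 8 of 9 genes in wild type (48.1% of all tested genes) and 7 of 9 in knockout (48.8%). In a bulk sample, a larger share of cells that express a gene and more RNA per cell cannot be told apart. At least 2-fold changes were seen for the same 3 genes in each genotype, Pla2g4a, Ptges and Ptgs2, where 7.2% of tested genes in wild type and 7.71% in knockout changed that much. The median size of the change over the 9 genes was 0.55 in wild type and 0.64 in knockout, beside 0.17 and 0.19 over all tested genes. Ptgs2 and Ptger2 were above the dim limit in one treatment only, so they entered the test through the group in which they were high. Among the other 7 genes 4 rose and 2 fell in wild type, and 3 rose and 2 fell in knockout.

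**Figure D1:**
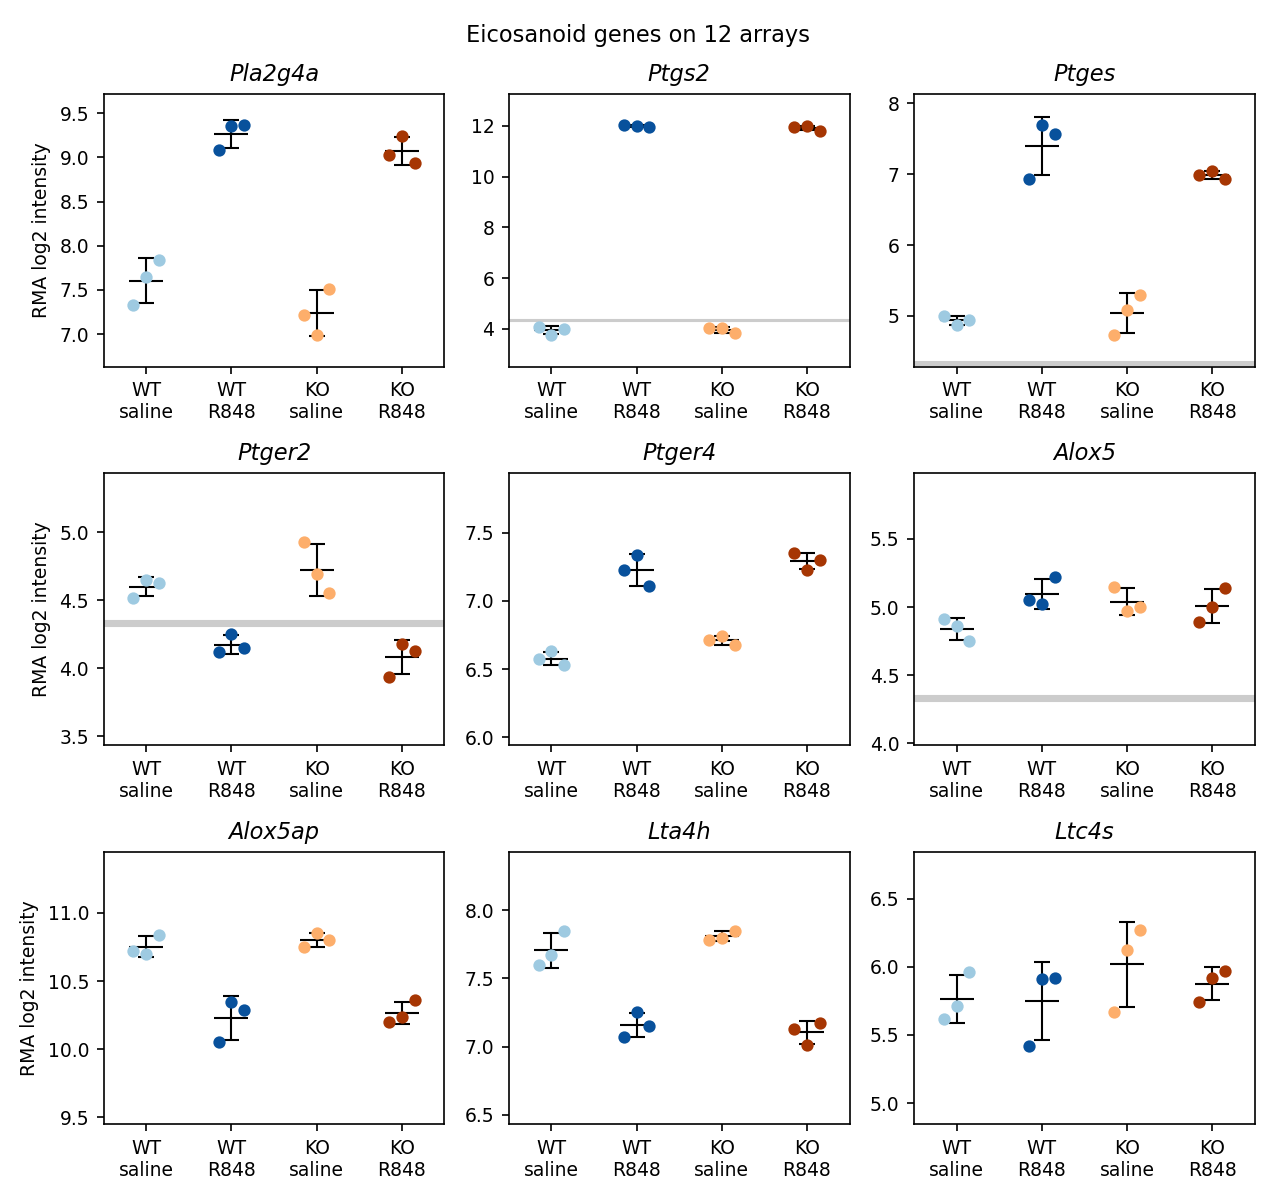
RMA log2 intensity of the 9 eicosanoid genes on each of the 12 arrays (coloured points; WT wild type, KO knockout), with the group mean and SD over 3 arrays (black) and the range of the dim limit, 4.31 to 4.35 (grey band, where it falls in a panel). Each panel has its own axis; Ptgs2 lies below the band with saline and near 12 with R848, and Ptger2 crosses the band in the other direction.

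Pla2g4a encodes cytosolic phospholipase A2, which releases arachidonic acid from membranes. Its wild-type values were 7.33, 7.65 and 7.84 with saline and 9.08, 9.35 and 9.36 with R848. Its knockout values were 7.22, 6.99 and 7.51 with saline and 9.03, 9.24 and 8.93 with R848. In both genotypes every R848 array lay above every saline array. The rise was 1.66 ± 0.14 (SE, limma adjusted p = 2.99e-07), or 3.15-fold, in wild type and 1.83 ± 0.14 (adjusted p = 9.29e-08) in knockout, or 3.55-fold.

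Ptgs2, the inducible cyclooxygenase, went from dim to near the top of the scale. With saline it was at 4.06, 3.76 and 4.01 in wild type and at 4.02, 4.05 and 3.83 in knockout, all below the dim limit. With R848 it reached 12.01, 11.98 and 11.93 in wild type and 11.96, 11.97 and 11.81 in knockout, where the highest value of any row on any array was 12.85. The 3 arrays of each group lay close together (SD 0.04 to 0.16), and the treatments were far apart. With the saline arrays set at the dim limit, Ptgs2 was at least 201-fold higher with R848 in wild type (limma adjusted p of the measured difference = 1.01e-16) and at least 192-fold higher in knockout (adjusted p = 1.17e-16). These are lower bounds relative to that limit, a percentile of the rows with a single gene symbol on each array, and the saline level itself was not measured.

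Ptges encodes the inducible microsomal prostaglandin E synthase, which works downstream of Ptgs2. It was at 5.0, 4.87 and 4.94 in wild type with saline and at 6.94, 7.69 and 7.57 with R848. In knockout it was at 4.73, 5.09 and 5.29 with saline and at 6.99, 7.05 and 6.94 with R848. Treatments did not overlap in either genotype, but the wild-type R848 arrays were spread (SD 0.40) while the knockout ones were not (SD 0.06). The rise was 2.46 ± 0.16 (SE, limma adjusted p = 1.55e-08) in wild type, or 5.51-fold, and 1.96 ± 0.16 (adjusted p = 1.78e-07) in knockout, or 3.88-fold.

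The start regions of Pla2g4a, Ptgs2, Ptges and the receptor gene Ptger4 are shown because these 4 genes rose in both genotypes. They come from RefSeq (GRCm38.p6), which held windows for 9 of the 10 names, and each line gives the 250 bases before the annotated start, 5′ to 3′ on the gene's strand. Capitals mark matches on either strand to any of 7 motifs, chosen with the sequences in view: the core of the cyclic AMP response element (CRE) TGACGT, C/EBP TTGCNNAA, E-box CACGTG, NF-kB, Sp GGGCGG, Egr GNGGGCGG and AP-1 TGANTCA. Every Egr match contains an Sp match.
Pla2g4a, first of its annotated starts, chr1:149961291-149961540, minus strand: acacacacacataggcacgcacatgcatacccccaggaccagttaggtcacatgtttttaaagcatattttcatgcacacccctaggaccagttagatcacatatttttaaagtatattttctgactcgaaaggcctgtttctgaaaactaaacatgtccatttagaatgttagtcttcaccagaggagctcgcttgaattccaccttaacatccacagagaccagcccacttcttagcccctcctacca
Ptgs2, chr1:150099781-150100030, plus strand: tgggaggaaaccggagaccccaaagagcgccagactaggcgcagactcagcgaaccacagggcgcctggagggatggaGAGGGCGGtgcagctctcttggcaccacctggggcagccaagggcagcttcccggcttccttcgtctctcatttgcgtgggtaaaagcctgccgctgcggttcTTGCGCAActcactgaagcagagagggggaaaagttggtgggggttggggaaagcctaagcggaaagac
Ptges, chr2:30903298-30903547, minus strand: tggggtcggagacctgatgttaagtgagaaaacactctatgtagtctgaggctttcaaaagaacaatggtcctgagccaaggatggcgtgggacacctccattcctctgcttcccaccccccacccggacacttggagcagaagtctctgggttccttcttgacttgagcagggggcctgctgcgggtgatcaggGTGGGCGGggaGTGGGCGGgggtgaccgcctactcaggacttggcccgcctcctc
Ptger4, chr15:5244188-5244437, minus strand: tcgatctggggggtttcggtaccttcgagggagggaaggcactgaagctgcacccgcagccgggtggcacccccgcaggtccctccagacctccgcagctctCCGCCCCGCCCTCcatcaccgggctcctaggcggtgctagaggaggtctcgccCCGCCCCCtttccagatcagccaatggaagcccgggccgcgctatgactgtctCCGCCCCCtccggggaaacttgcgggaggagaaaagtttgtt

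A C/EBP match, the palindrome TTGCGCAA, lies at -69 to -62 of the Ptgs2 window. A C/EBP match was found in 9.56% of the 32851 windows of 250 bases in the table. Just past the annotated Ptgs2 start, a CRE core at 13 to 18 overlaps an E-box at 17 to 22, shown in capitals in the 30 bases of chr1:150100033-150100062, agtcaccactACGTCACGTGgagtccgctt. Over whole windows of 300 bases, which reach 50 bases past the start, 7.51% held a CRE core and 7.15% an E-box. Ptgs2 has an Egr match at -172 to -165, Ptges a pair, at -55 to -48 and at -44 to -37, and Ptger4 has 3. Of windows of 250 bases, 19.9% held at least 1 Egr match and 32.7% at least 1 Sp match. No match to any of these 7 motifs was found in the windows of Pla2g4a, Ptgs1, Lta4h and Ltc4s, which says only that these letters are not there. Among genes that did not rise in both genotypes, Ptger2 had a C/EBP match at 40 to 47 and Alox5 an Sp match at -35 to -30. Of whole windows of 300 bases, 10.8% held a C/EBP match. These matches are a description of the sequence, and no binding was measured.

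Of the receptors for prostaglandin E2, Ptger4 rose, and Ptger2 was dim with R848. Ptger4, the EP4 receptor, was at 6.57, 6.63 and 6.53 with saline and 7.23, 7.34 and 7.11 with R848 in wild type, and at 6.71, 6.74 and 6.68 and then 7.35, 7.23 and 7.30 in knockout. In wild type it rose by 0.65 ± 0.07 (SE, limma adjusted p = 5.2e-06) and in knockout by 0.58 ± 0.07 (adjusted p = 1.43e-05), without overlap between treatments. Ptger2, the EP2 receptor, was at 4.52, 4.65 and 4.63 with saline and 4.12, 4.25 and 4.15 with R848 in wild type. In knockout it was at 4.93, 4.69 and 4.55 with saline and 3.94, 4.18 and 4.13 with R848. All 6 saline arrays lay above the dim limit and all 6 R848 arrays below it. With the R848 arrays set at the dim limit, mean Ptger2 was at least 1.2-fold lower with R848 in wild type and at least 1.3-fold lower in knockout. These bounds use group means and hold no sampling error. Measured means were 4.60 and 4.17 in wild type (limma adjusted p = 0.00261) and 4.72 and 4.08 in knockout (adjusted p = 7.87e-05). The 95% interval of the measured fall was 1.16- to 1.55-fold in wild type and 1.35- to 1.8-fold in knockout. Saline values of Ptger2 lay little above the limit, and it entered the test only through them.

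In the leukotriene branch, Alox5ap and Lta4h fell in both genotypes. Alox5ap, which presents arachidonic acid to the lipoxygenase, was at 10.72, 10.70 and 10.84 with saline and 10.05, 10.35 and 10.29 with R848 in wild type, and at 10.75, 10.85 and 10.80 and then 10.20, 10.24 and 10.36 in knockout. The differences were -0.52 in wild type (limma adjusted p = 0.000177) and -0.53 in knockout (0.000137), with no overlap between treatments. A second Alox5ap row, with a mean of 6.36, was spread within groups (SD 0.25 to 0.67) and gave 0.04 ± 0.31 (SE) in wild type and -0.61 ± 0.31 in knockout, neither past the threshold. With the mean of both rows in place of the higher one, the wild-type call ended (-0.24, limma adjusted p = 0.35).

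Lta4h, the hydrolase that makes leukotriene B4, was at 7.60, 7.67 and 7.85 with saline and 7.07, 7.25 and 7.15 with R848 in wild type. In knockout it was at 7.78, 7.80 and 7.85 with saline and 7.13, 7.01 and 7.17 with R848. The lowest saline array of each genotype lay above its highest R848 array. The fall was -0.55 in wild type (limma adjusted p = 7.05e-05) and -0.71 in knockout (5.44e-06).

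Alox5 is the lipoxygenase that starts leukotriene synthesis, and its values lay not far above the dim limit. It was at 4.91, 4.86 and 4.75 with saline and 5.05, 5.02 and 5.22 with R848 in wild type, and at 5.15, 4.97 and 5.0 and then 4.89, 5.0 and 5.14 in knockout. The wild-type treatments did not overlap and the knockout ones did. The wild-type rise of 0.26 (95% interval 0.07 to 0.44) passed narrowly (limma adjusted p = 0.0312), and the knockout change was -0.03 (-0.22 to 0.16, adjusted p = 0.821). Without 1 of 3 arrays that call ended, namely wild-type saline replicate 2 (limma adjusted p = 0.0617), wild-type saline replicate 3 (0.118) or wild-type R848 replicate 3 (0.144). It also ended with the mean of both Alox5 rows (0.04, limma adjusted p = 0.708). A second Alox5 row, with a mean of 4.30 and above the dim limit on 4 of 12 arrays, went the other way, by -0.18 in wild type (limma adjusted p = 0.0909 over all rows) and -0.28 in knockout (adjusted p = 0.009).

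Ltc4s, the synthase of leukotriene C4, overlapped between treatments in both genotypes. It was at 5.62, 5.71 and 5.96 with saline and 5.42, 5.91 and 5.92 with R848 in wild type, and at 5.67, 6.12 and 6.27 and then 5.74, 5.92 and 5.97 in knockout. The change was -0.01 (95% interval -0.35 to 0.32) in wild type and -0.14 (-0.48 to 0.19) in knockout, and neither passed the threshold (limma adjusted p = 0.961 and 0.513).

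**Figure D2:**
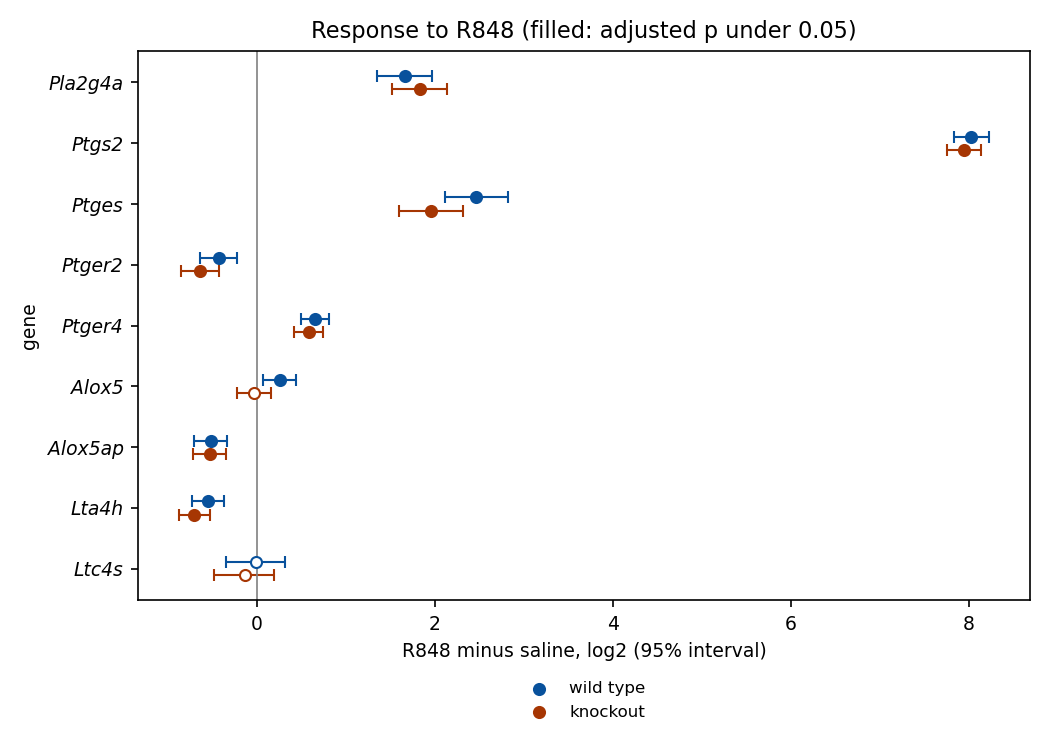
R848 minus saline (log2, as measured) for each of the 9 genes, with limma's 95% interval, in wild type (blue) and knockout (brown); filled points had an adjusted p under 0.05, and for Ptgs2 (saline) and Ptger2 (R848) one side of the difference is dim. Ptgs2 lies near 8, Ptges and Pla2g4a between 1.66 and 2.46, and the other 6 genes between -0.71 and 0.65.

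The knockout was then compared with wild type. The labels name no group with the transgene alone, so this contrast cannot tell loss of Rasgef1b apart from an effect of the transgene. With saline 0 of the 9 genes passed the threshold (limma), where 0.334% of all tested genes passed, and with R848 0 of 9 passed, where 0.135% did. At an unadjusted p under 0.05 there were 2 of 9 with saline, Pla2g4a and Alox5, and 1 of 9 with R848, Ptges, where 12.6% and 8.74% of all tested genes reached that level. The difference between the R848 responses passed for 0 of 9, where 0.0142% of all tested genes passed, and 2 of 9, Ptges and Alox5, had an unadjusted p under 0.05, where 4.93% did. Averaged over treatments 0 of 9 passed, where 1.78% of all tested genes did, with 1 of 9, Pla2g4a, at an unadjusted p under 0.05 (16.1% of all). The median size of the knockout difference over the 9 genes was 0.12 with saline and 0.09 with R848, beside 0.09 and 0.08 over all tested genes. These comparisons share arrays and are not independent of each other.

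Ptgs2 did not differ past the threshold between genotypes. With R848 the knockout mean of 11.91 lay beside 11.97 in wild type, a difference of -0.06 (95% interval -0.26 to 0.14; limma adjusted p = 0.906). The interval leaves room for a knockout level of 0.838 to 1.1 times that of wild type under R848. With saline both genotypes were dim, so neither an order there nor a difference between the R848 responses can be given.

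Ptges held the widest genotype gap among the 9 genes under R848. The knockout mean was 6.99 ± 0.06 (SD, n = 3) against 7.40 ± 0.40 (n = 3) in wild type, a difference of -0.41 (95% interval -0.76 to -0.05; limma adjusted p = 0.492). The groups overlapped, because wild-type R848 replicate 1, at 6.94, lay as low as the lowest knockout array. The R848 responses differed by -0.51 (-1.01 to -0.01; adjusted p = 0.986). Leaving out 1 array at a time gave R848 differences of -0.64 to -0.26, with limma adjusted p between 0.119 and 0.896.

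Pla2g4a was lower in knockout by mean, with overlapping groups: -0.37 (95% interval -0.68 to -0.06; limma adjusted p = 0.297) with saline, -0.20 (-0.51 to 0.11; adjusted p = 0.757) with R848 and -0.28 (-0.50 to -0.06; adjusted p = 0.184) averaged. Leaving out 1 array at a time gave -0.50 to -0.24 with saline and -0.29 to -0.13 with R848. Ptger4 and Alox5 were the genes whose saline groups did not overlap, both higher in knockout, where that held for 16.1% of all tested genes in either direction and 6.65% higher. Ptger4 was higher by 0.13 (-0.03 to 0.29; limma adjusted p = 0.487) and Alox5 by 0.20 (0.01 to 0.39; adjusted p = 0.365) in knockout, neither past the threshold. With R848 the groups of all 9 genes overlapped, where 13.8% of all tested genes had groups that did not.

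For Alox5ap, Lta4h, Ltc4s and Ptger2 the knockout differences were between 0.05 and 0.26 with saline and, without Ptger2, which was dim in both genotypes there, between -0.05 and 0.13 with R848. These are differences of the row used for each gene, of which Ltc4s had the widest interval, from -0.08 to 0.59 with saline. The second Alox5ap row gave 0.5 ± 0.31 (SE) with saline and -0.14 ± 0.31 with R848, neither past the threshold. For none of the 9 genes did wild type and knockout of one treatment differ past limma's threshold, so these data give no order of the genotypes. Summed dendritic cell markers (7 with a row, 4 above the dim limit on all arrays, Zbtb46 on none) were 661 to 854 in knockout and 530 to 613 in wild type with saline, and 569 to 646 and 578 to 602 with R848, and 0 of 5 tested markers passed the threshold between genotypes. The brightest of the 7 was Cd209a, with saline means of 9.23 in knockout and 8.70 in wild type. Saline means of Xcr1 were 5.09 and 4.82, of Flt3 4.73 and 4.58, of Ccr7 5.54 and 5.56 and of Siglech 4.29 and 4.41. Of 3 tested neutrophil markers 1 passed averaged over treatments, S100a9, by 0.30 ± 0.07 (SE, limma adjusted p = 0.0375), with means of 4.87 in knockout and 4.75 in wild type with saline and 5.19 and 4.72 with R848. The summed intensity of the 11 neutrophil markers, of which 3 lay above the dim limit on all arrays, did not overlap between genotypes with R848 (192 to 202 in knockout, 174 to 185 in wild type). The part of these markers in the values above was not tested.

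**Figure D3:**
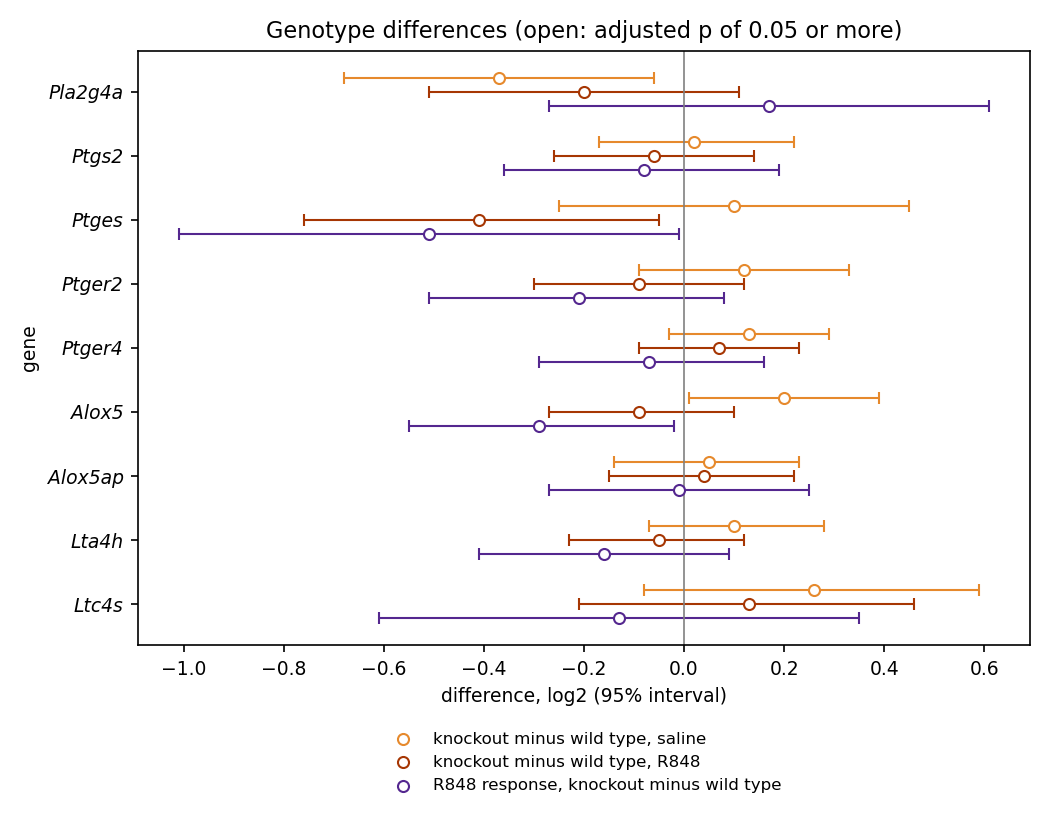
Differences (log2) with limma's 95% intervals for the 9 genes: knockout minus wild type with saline (light orange) and with R848 (brown), and the R848 response in knockout minus that in wild type (purple). All points are open because none had an adjusted p under 0.05, and those of Ptgs2 with saline, Ptger2 with R848 and both genes' response differences rest on dim values; Ptges under R848 lies at -0.41 and its response difference at -0.51.

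Other genes of eicosanoid metabolism were taken from 5 lists that leave out the 9 genes. Of 60 listed symbols 53 had a row and 41 were tested. In wild type 8 rose and 9 fell with R848, and in knockout 9 rose and 8 fell, which makes 17 of 41 in each near the 38.3% and 41.6% of all tested genes that passed. The median change of the 41 genes was -0.01 in wild type and -0.01 in knockout, beside -0.02 and -0.03 over all tested genes.

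Among enzymes that break prostaglandins down, Hpgd, Ptgr2, Cbr1 and Ptgr1 fell. Hpgd, the dehydrogenase that starts the inactivation of prostaglandin E2, was at 6.46 ± 0.20 (SD, n = 3) with saline and 5.18 ± 0.13 (n = 3) with R848 in wild type, and at 6.28 ± 0.69 (n = 3) and 4.85 ± 0.09 (n = 3) in knockout. The change was -1.28 in wild type (limma adjusted p = 0.000405), a 2.43-fold fall, and -1.43 in knockout (0.000139), a 2.7-fold fall. The prostaglandin reductase Ptgr2 changed by -0.65 and -0.86 in wild type and knockout, and the carbonyl reductase Cbr1 by -0.95 and -0.67, all past the threshold. Ptgr1, a reductase of prostaglandins and leukotriene B4, changed by -0.25 and -0.31, calls that ended with cyclic loess between arrays (-0.12 and -0.17, limma adjusted p = 0.243 and 0.0903); the wild-type call also ended without wild-type saline replicate 2 (0.0708) or 3 (0.066) or wild-type R848 replicate 1 (0.053). Among transporters, Abcc1, which exports leukotriene C4, rose by 0.67 and 0.79, and Abcc4, which exports prostaglandins, by 0.37 and 0.32, the latter call ending without knockout saline replicate 3 (0.0509) or knockout R848 replicate 1 (0.0534). In all, 2 of 9 tested genes of breakdown and transport rose and 4 fell in each genotype, where 14.6% and 15.6% of all tested genes rose and 23.6% and 26.0% fell in wild type and knockout.

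Of 5 tested prostanoid synthases other than Ptges, 1 rose and 2 fell in each genotype, where 14.6% and 15.6% of all tested genes rose and 23.6% and 26.0% fell. Tbxas1, thromboxane synthase, was at 7.94 ± 0.04 (SD, n = 3) with saline and 7.0 ± 0.05 (n = 3) with R848 in wild type, and at 7.93 ± 0.14 (n = 3) and 6.98 ± 0.13 (n = 3) in knockout. It fell by 0.94 in both genotypes on the log2 scale (limma adjusted p = 5.27e-07 and 4.43e-07). Hpgds, the blood-cell prostaglandin D synthase, changed by -0.45 (wild type, limma adjusted p = 0.00143) and -0.68 (knockout, 3.04e-05). Ptges2, a further prostaglandin E synthase, rose by 0.26 (limma adjusted p = 0.0397) and 0.47 (adjusted p = 0.000915). The wild-type Ptges2 call ended without any of the 3 wild-type saline arrays, wild-type R848 replicate 2 or 3 or knockout saline replicate 2, where limma's adjusted p lay between 0.0503 and 0.219, with no filter on dim rows (0.052) and with only the groups compared in the fit (0.0714).

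Among genes that handle arachidonic acid, Pla2g15, a lysosomal phospholipase, fell from 8.96 ± 0.10 (SD, n = 3) to 7.64 ± 0.09 (n = 3) in wild type and from 9.20 ± 0.06 (n = 3) to 7.75 ± 0.06 (n = 3) in knockout. The changes were -1.32 (limma adjusted p = 3.6e-09) and -1.45 (1.2e-09), and with the mean of all rows of the gene -0.82 and -0.73, still past the threshold. Lpcat2, which returns fatty acids to phospholipids and makes platelet-activating factor, rose by 0.94 and 0.97 (limma adjusted p = 5.1e-05 and 3.62e-05). Acsl4, which activates arachidonic acid for storage, rose by 0.41 and 0.31, and Anxa1, annexin A1, by 0.30 and 0.36. Plaa passed in knockout only, at 0.29 beside 0.15 in wild type, and the difference between the genotypes' responses did not pass for any of the 41 genes. Of 13 tested genes of this list 3 rose and 1 fell in wild type (14.6% and 23.6% of all tested genes), and 4 rose and 1 fell in knockout (15.6% and 26.0%).

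Of 7 tested receptors for other eicosanoids, 2 rose and 0 fell in each genotype, beside 14.6% and 15.6% of all tested genes that rose and 23.6% and 26.0% that fell. Ptgir, the prostacyclin receptor, which like Ptger4 raises cyclic AMP, rose by 0.86 and 0.73 (limma adjusted p = 5.76e-05 and 0.000233). Cysltr1, a receptor for cysteinyl leukotrienes, rose by 0.58 and 0.72 (adjusted p = 0.000251 and 3.09e-05). The leukotriene B4 receptor Ltb4r1 was at 4.57 to 4.70 in group means, and its changes of 0.05 and 0.13 did not pass. Of 7 tested lipoxygenases and epoxide enzymes 0 rose, and 2 fell in wild type and 1 in knockout (23.6% and 26.0% of all tested genes); Ephx1, an epoxide hydrolase, changed by -0.60 and -0.77, and Cyp2j6 by -0.30 in wild type and -0.10 in knockout (limma adjusted p = 0.4). The wild-type Cyp2j6 call ended without wild-type saline replicate 2 (limma adjusted p = 0.0638).

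**Figure D4:**
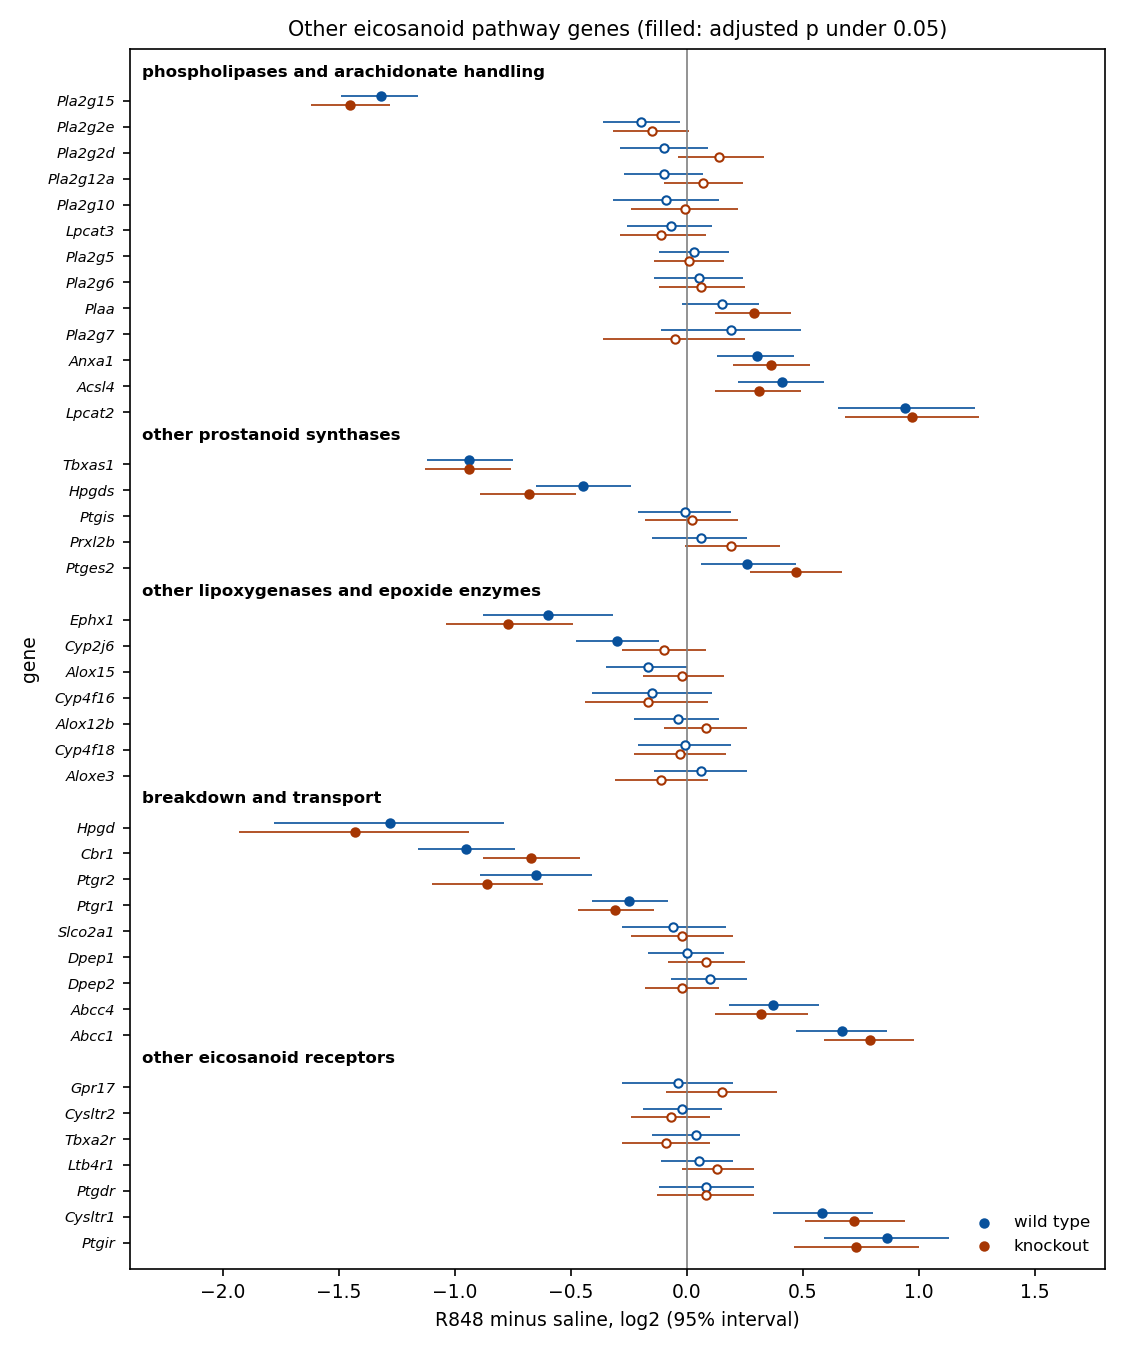
R848 minus saline (log2) with limma's 95% intervals for the 41 tested genes of the 5 other eicosanoid lists, in wild type (blue) and knockout (brown); filled points had an adjusted p under 0.05. Pla2g15 (at -0.82 and -0.73 with the mean of its rows, not drawn) and Hpgd lie lowest. Lpcat2 lies highest, followed by Ptgir in wild type and Abcc1 in knockout.

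Between genotypes 0 of these 41 genes passed with saline or with R848 (limma), and 0 passed for the difference between the responses. Averaged over treatments 1 passed, Ephx1, which was higher, where 1.78% of all tested genes passed and 0.774% were higher. It was at 8.29 ± 0.26 (SD, n = 3) in knockout and 7.76 ± 0.13 (n = 3) in wild type with saline, and at 7.53 ± 0.06 (n = 3) and 7.16 ± 0.24 (n = 3) with R848. The averaged difference was 0.45 ± 0.09 (SE, limma adjusted p = 0.0267). That call ended without wild-type replicate 2 or 3 of either treatment, without knockout saline replicate 1 or 2 and without knockout R848 replicate 2, with adjusted p between 0.0522 and 0.0769.

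For the 3 genes that changed at least 2-fold, the genes with the most similar profile were found by the root mean square difference over the 12 arrays after each gene was centred on its own mean, among 12829 named genes. Il1b, the precursor of interleukin 1 beta, was nearest to Ptgs2, at 0.17, with rises of 8.04 and 8.05, followed by Acod1 (0.59) and Edn1 (0.94). Nearest to Pla2g4a were Clec5a (0.16), Ccl3 (0.16) and Ets2 (0.18). Nearest to Ptges were Plpp1 (0.21), Ikbke (0.24) and Sema4c (0.24). These distances describe the arrays as they stand, and most of each profile is the step between saline and R848. Ptgs2 was dim on all saline arrays, so the saline part of its distances rests on values below the limit.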

How the data were processed

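Expression was measured on 12 Affymetrix Mouse Gene 2.1 ST arrays. The deposited values are log2 intensities, made by the authors with Affymetrix Expression Console and RMA (background correction, quantile normalization, summary of each row's probes), per the submitters' processing notes; the sources used here give no versions or settings. RMA gives all arrays nearly the same distribution and compresses differences of dim rows. No scanner file, strip or date was used, so batches could not be examined, and the number of arrays limits the precision.

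Of 34472 rows, 23521 had 1 gene symbol in the platform table, 1814 several and 9137 none; only the first were used. Where a symbol had several rows, that with the highest mean was kept. A gene was tested if it exceeded the 40th percentile on at least 3 arrays (14079 genes). A single linear model with a mean per group was fitted to all 12 arrays (limma 3.58.1, R 4.3.3, lmFit and eBayes), with Benjamini-Hochberg adjustment over all tested genes within each contrast. Every adjusted p is limma's. The fit was run on simulated data with independent noise, which checks the computation and not whether its assumptions hold for these arrays. For a gene dim on every array of a treatment, the fold is a bound, with those arrays at the higher of the dim limit and their own value, a step added after the data were seen. Same-numbered arrays of the knockout saline and knockout R848 groups had residual correlations of 0.272, 0.172 and 0.275, all above the minimum of 0.1. These correlations were seen in the data, and no label states a pairing. Differently numbered arrays were not compared in this way, so the values do not establish a pairing. The other pairs of groups compared did not meet that minimum. The main fit held no term for pairs, and replicate number entered only as a block in an alternative. All 10 genes are named, and from each other list up to 4 genes past the threshold per contrast with the largest change; Plaa, Ptgr1, Abcc4 and Ltb4r1 were named after their values were seen. The genes, lists and tests were chosen with earlier results of these data known. Alternatives covered the spread model, the filter, scaling between arrays, the arrays fitted, a replicate block, the rows of a gene, a minimum change and leaving out each array; for the other lists they were added after the data were seen.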

Additional observations from a re-analysis of the deposited data

How the results depend on the processing

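Over all alternatives, the counts of the 9 genes past limma's threshold stayed within 1.5 times of 8 in wild type and 7 in knockout, except against a minimum log2 change of 1, which left 3 in each (Pla2g4a, Ptges and Ptgs2). Leaving out single arrays gave 7 to 8 and 7 to 7. For the 4 contrasts of genotype the count stayed at 0. With the replicate number as a block the counts were 8, 7 and 0 for these genes and 17, 17 and, averaged over treatments, 1 for the other lists, and the block changed no call. For the other lists a minimum change of 1 left 1 gene in each genotype and 0 in the averaged contrast, where cyclic loess gave 2; leaving out single arrays gave 0 to 1 with saline and 0 to 2 averaged. Fits of only the groups compared were not run for the interaction and the averaged contrast, which use all 4 groups.

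Changes of sign occurred only in values that had not passed. With R848 in wild type Ltc4s became 0.01 with median centring and 0.11 with cyclic loess, and -0.10 to 0.15 without single arrays; Alox5 in knockout became 0.01 with cyclic loess and -0.10 to 0.03. For knockout against wild type with R848, cyclic loess gave 0.00 for Ptgs2 and 0.01 for Lta4h, the mean of all rows gave -0.05 for Alox5ap, and single arrays left out gave -0.05 to 0.10 for Alox5ap and -0.04 to 0.21 for Ltc4s. With saline the ranges were -0.07 to 0.09 for Ptgs2, dim in both genotypes, and -0.03 to 0.25 for Ptges. For the interaction, Alox5ap became 0.03 with cyclic loess, with ranges of -0.10 to 0.05 for Alox5ap and -0.15 to 0.01 for Ptgs2. Averaged over treatments, Ptgs2 became 0.03 with cyclic loess, and the ranges were -0.06 to 0.02 for Ptgs2, -0.04 to 0.06 for Ptger2, 0.00 to 0.07 for Alox5ap and 0.00 to 0.06 for Lta4h. The cause was not tested.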
